A study of Mus musculus with 6 samples.

Results

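The insulin-like growth factor (IGF) system was examined at the transcript level in the medial prefrontal cortex (mPFC) of *Shank3* transgenic (TG) mice. The members were *Igf1* and *Igf2*, which encode the ligands, *Igf1r* and *Igf2r*, which encode the receptors, and *Igfbp2* to *Igfbp7*, which encode binding proteins. They were taken by gene symbol, by a rule that uses no measured value, although earlier results of these data were known when the system was chosen. They made up 10 of the 18254 genes in the deposited table. All 10 passed the filter on low values, a mean of at least 5 normalized counts, and were among the 16714 genes tested. The TG mice carried an EGFP-*Shank3* transgene, which raises Shank3 above its normal level, and were compared with wild-type (WT) littermates. All mice were males on a C57BL/6J background, 10 to 12 weeks old, and received no treatment. There were 3 libraries of each genotype, named by genotype and number (such as TG-1 or WT-3), each from the pooled mPFC of a pair of mice, so that a replicate is a pool and not an animal. The promoter of the transgene and the cells in which it is active are not given in the sources used here.

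IGF1 and IGF2 are secreted peptides that promote growth and survival through the tyrosine kinase receptor encoded by *Igf1r*. The receptor encoded by *Igf2r* binds IGF2 and carries it to lysosomes, and the IGF-binding proteins hold the ligands in the extracellular fluid and limit or prolong their action. In the adult brain, *Igf2*, *Igfbp2* and *Igfbp6* are known to be made chiefly by fibroblasts of the leptomeninges, with some *Igf2* and *Igfbp2* also made by the choroid plexus. The other members are made mainly within the tissue, *Igf1* by neurons among others, and *Igfbp3* and *Igfbp7* chiefly by vessels. *Igfbp4* and *Igfbp5* are made by neurons and also by fibroblasts of the meninges, so the groups below are not cleanly separate. On this background the members were divided into 3 meningeal genes (*Igf2*, *Igfbp2*, *Igfbp6*) and 7 parenchymal genes. The libraries were made from bulk tissue, so the cell in which a transcript was made was not measured.

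The meningeal members do not share a promoter. The sequences upstream of their annotated starts are shown because the 3 genes are treated as a group here, although their values did not move together. Each is the 100 bases before a RefSeq transcription start on GRCm38.p6, read 5′ to 3′ on the strand of the gene. Capitals mark the GC box (GGGCGG), the TATA box (TATAAA) and the CCAAT box (CCAAT), each searched on both strands. The *Igf2* sequence lies at chr7:142657497-142657596 on the minus strand and belongs to the most downstream of its 4 listed starts. The *Igfbp2* sequence is chr1:72824380-72824479 and the *Igfbp6* sequence chr15:102144086-102144185, both on the plus strand.
Igf2: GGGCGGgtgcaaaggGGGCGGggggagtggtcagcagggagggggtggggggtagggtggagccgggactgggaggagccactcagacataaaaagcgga
Igfbp2: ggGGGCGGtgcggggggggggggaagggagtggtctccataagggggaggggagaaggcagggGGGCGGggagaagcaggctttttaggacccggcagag
Igfbp6: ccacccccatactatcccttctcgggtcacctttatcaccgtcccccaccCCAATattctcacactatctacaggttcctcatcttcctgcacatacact

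The *Igf2* and *Igfbp2* sequences held GC boxes, and the *Igfbp6* sequence held a CCAAT box and no GC box. The sequences shown are not the only starts. RefSeq lists a downstream start of *Igfbp2* whose window held none of the 3 boxes, and 2 of the 4 windows of *Igf2* held no GC box. RefSeq listed 14 promoter windows, each from 250 bases before to 50 bases after a start, for the 10 members. A GC box was present in 6 of these 14 windows and in 35.7% of all 32851 windows of the annotation. A TATA box was present in 2 of 14, those of *Igfbp4* and *Igfbp6*, against 13.6% of all windows. A CCAAT box was present in 3 of 14, in *Igf1*, *Igf2* and *Igfbp6*, against 37.4% of all windows. The matches describe the letters only, and binding of a factor was not measured.

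The normalized counts summed to between 28363967 and 29447717 per library. *Shank3*, the overexpressed gene, had 17470, 19003 and 16310 normalized counts in TG-1 to TG-3, against 8374, 8173 and 6791 in WT-1 to WT-3. All TG libraries were far above all WT libraries, as their labels require, with a log2 fold change of 1.18 (SE 0.10). Its adjusted p-value in limma was 0.0643 with genotype alone, and 0.000437 when the replicate number was a block. With genotype alone, 0 genes (0% of those tested) passed an adjusted p-value of 0.05, 336 (2.01%) had an unadjusted p-value under 0.05, and 156 (0.933%) did so with higher values in TG. With the block, 1 gene (0.00598%) passed the adjusted threshold and 833 (4.98%) had an unadjusted p-value under 0.05. The transcript of a cortical excitatory neuron kinase, *Camk2a*, had between 102685 and 127170 normalized counts. The pair of libraries numbered 3 stood apart from the other 4 in some genes, among them *Igf2bp2*, and values without this pair are given where they matter.

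The levels of the 10 members spanned a wide range when they were compared per kilobase of annotated exon. *Igfbp6*, which encodes a binding protein with a preference for IGF2, had the highest level, 922 normalized counts per kilobase on average over the 6 libraries (798 to 1019). It was followed by *Igfbp5* at 698 (643 to 782) and *Igfbp4* at 581 (530 to 663), whose ranges overlapped. *Igfbp7* at 484 (444 to 528), *Igfbp2* at 436 (321 to 529) and *Igf2* at 333 (284 to 398) formed a chain in which each range overlapped that of the next gene. The ranges of the remaining neighbours in the order did not overlap. *Igf2r* had 129 normalized counts per kilobase (115 to 138), *Igfbp3* 64.5 (57.4 to 72.5), *Igf1r* 47.6 (44.1 to 51.6) and *Igf1* 30.6 (27.4 to 36.9). The binding proteins other than *Igfbp3* thus lay above both receptors and *Igf1*, which was the lowest member. With the length of the longest transcript in place of the union of exons, 8 of the 10 members kept their place and *Igfbp2* and *Igfbp7* changed places. With that length the ranges of *Igfbp3* (74.2 to 93.8) and *Igf1r* (65.0 to 76.0) overlapped. Those of *Igfbp4* (611 to 764) and *Igfbp2* (454 to 748) did so too.

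**Figure D1:**
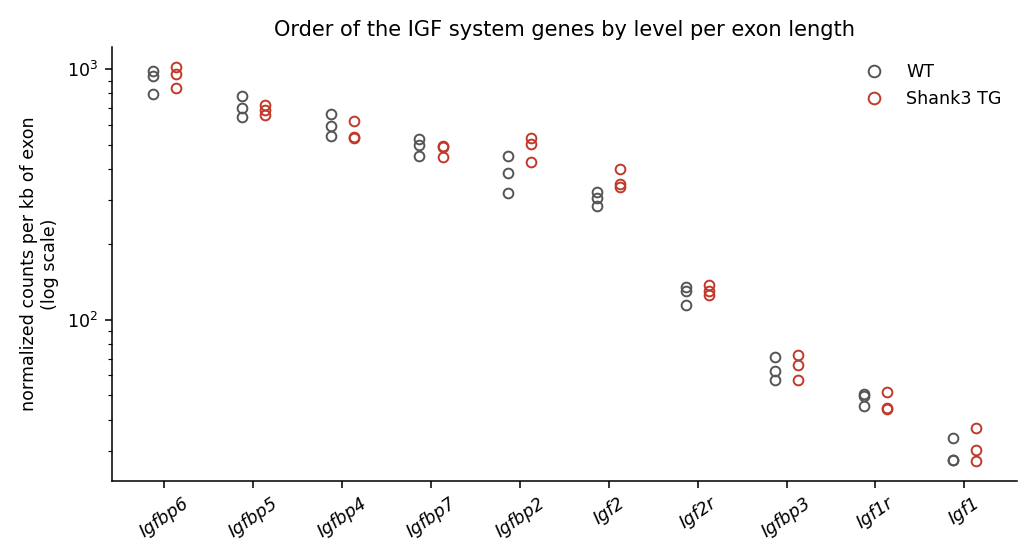
Levels of the 10 IGF system members in normalized counts per kilobase of union exon on a log axis, with 1 point per library. The levels run from 30.6 for *Igf1* to 922 for *Igfbp6*, with TG and WT points close together for most members.

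None of the members was called different between the genotypes. In limma 0 of 10 passed an adjusted p-value of 0.05, with genotype alone, with the block or with an empirical null, a rescaling of the test statistics to their observed spread. At an unadjusted p-value under 0.05 there were 2 of 10, *Igf2* and *Igfbp2*, both with higher values in TG, and the same 2 were found with the block. Over all genes tested the share was 2.01% with genotype alone, 0.933% when only higher values in TG were counted, and 4.98% with the block. With the block, 389 of the 16714 genes were under 0.05 with higher values in TG. The median log2 fold change was 0.24 for the 3 meningeal members and -0.04 for the 7 parenchymal members. Over the 16 alternatives the meningeal median ran from 0.17 to 0.29. The parenchymal median was -0.0065 without TG-3, -0.0035 without WT-1 and 0.00085 without both libraries numbered 3. The median was 0.04 over all 10 and -0.0037 over all genes tested. The summed normalized counts of the meningeal members were 3855 to 4191 in TG and 3222 to 3781 in WT, without overlap, and those of the parenchymal members were 9472 to 10096 in TG and 9668 to 10363 in WT, with overlap. *Igf2* was the largest part of the meningeal sum, and *Igfbp2* and *Igfbp6* without it overlapped between the genotypes, with WT-1 above TG-2 and TG-3. As the members were chosen with earlier results known, neither sum was tested. In bulk tissue, fewer cells of a type and less RNA per cell cannot be told apart.

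**Figure D2:**
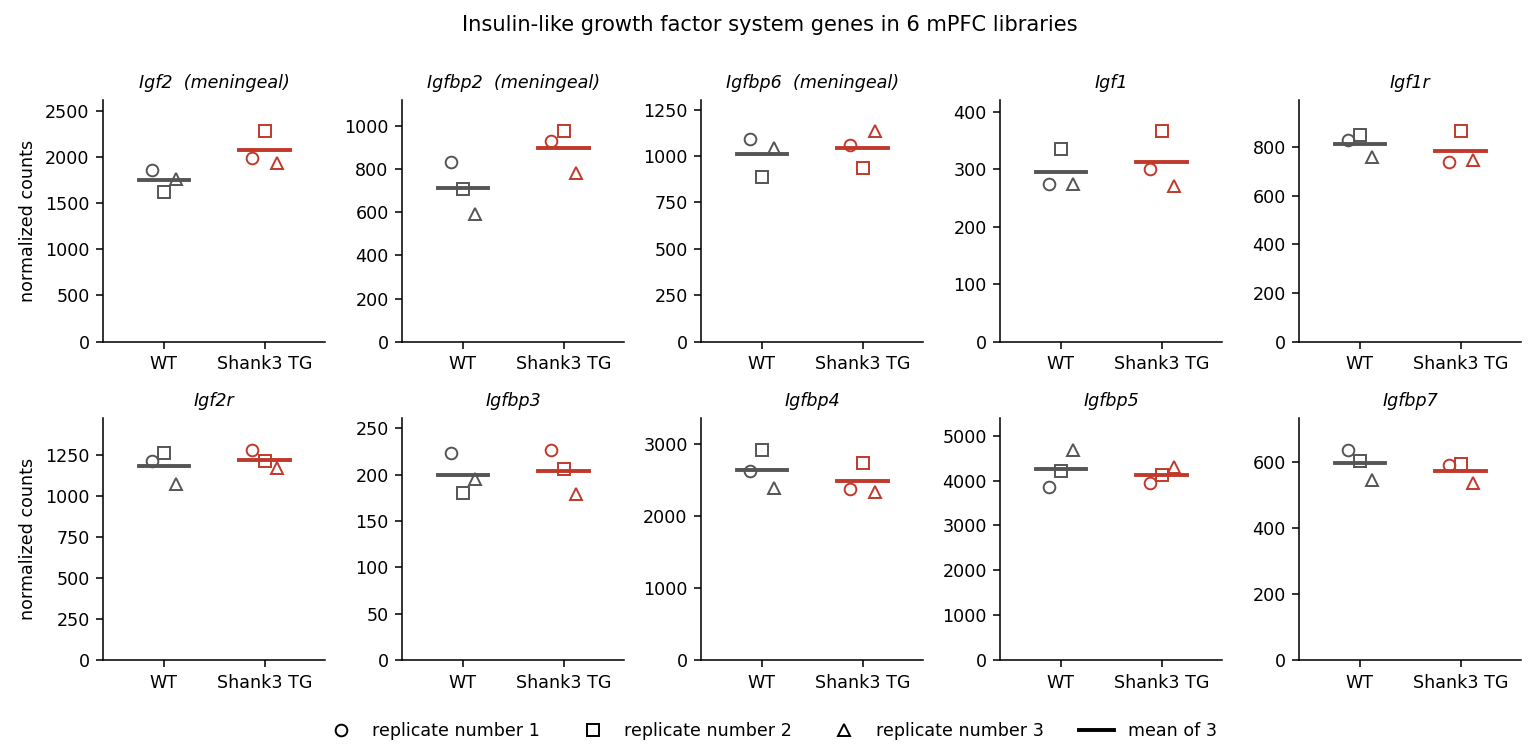
Normalized counts of each IGF system member in the 6 libraries, with 1 panel per gene and the mean of each genotype as a line. *Igf2* is the member in which every TG library lies above every WT library, from 1938 against at most 1856.

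Among the ligands, *Igf2* was higher in TG in every library. *Igf2* (ENSMUSG00000048583, GRCm38 chr7:142650766-142666816, minus strand) encodes the growth factor of fetal and placental growth and is expressed from the paternal allele in most tissues. It had 1990, 2278 and 1938 normalized counts in TG-1 to TG-3, while WT-1 to WT-3 had 1856, 1624 and 1759. The lowest TG library was above the highest WT library, so the groups did not overlap. The means were 2069 ± 183 in TG and 1746 ± 116 in WT (SD, n = 3 each), a difference of 18.5%. The log2 fold change was 0.24 (SE 0.09, 95% interval 0.03 to 0.46), with an unadjusted p-value of 0.0302 and an adjusted p-value of 1.00 in limma, and of 0.0171 and 0.851 with the block. An exact permutation test of this gene gave a 2-sided p-value of 0.1, the smallest that 3 libraries against 3 can give. All TG libraries lay above all WT libraries for 1 of the 10 members and for 486 of all genes (2.91% of those tested), and the groups did not overlap in either direction for 1007 (6.02%).

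The size of the *Igf2* difference varied between libraries with the same number. The log2 difference was 0.10 between TG-1 and WT-1, 0.49 between TG-2 and WT-2, and 0.14 between TG-3 and WT-3. The pair numbered 2 thus held most of the difference. Leaving out each library in turn gave log2 fold changes from 0.17 to 0.29, and the unadjusted limma p-value was 0.116 without TG-2, 0.0987 without WT-2 and 0.0501 without WT-3. Without both libraries numbered 3 it was 0.0232, with a log2 fold change of 0.29. The *Igf2* locus also holds a readthrough gene in the annotation, which was not analysed here. Its antisense transcript, *Igf2os*, was absent from the deposited table.

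*Igf1*, the ligand that mediates growth hormone action in the body and is made by neurons and glia in the cortex, did not separate the genotypes. *Igf1* (ENSMUSG00000020053, chr10:87858265-87937042, plus strand) had 300.3, 366 and 271 normalized counts in TG-1 to TG-3, while WT-1 to WT-3 had 275, 335 and 273. The groups overlapped, and the library numbered 2 was the highest in each genotype. The log2 fold change was 0.08 (SE 0.15, 95% interval -0.26 to 0.42), with an adjusted p-value of 1.00 in limma. The ratio of *Igf2* to *Igf1* normalized counts was 6.67 ± 0.46 in TG and 6.01 ± 1.02 in WT (SD, n = 3 each), with an exact permutation p-value of 0.5 (2-sided), or 0.625 after adjustment over the 5 ratios of members computed. The ratio of *Igf2* to *Igfbp6* was 2.01 ± 0.38 in TG and 1.74 ± 0.08 in WT, and that of *Igfbp2* to *Igfbp5* was 0.218 ± 0.032 in TG and 0.170 ± 0.045 in WT, each with an exact permutation p-value of 0.2 and an adjusted value of 0.5. The ratio of *Igfbp2* to *Igf2* was 0.434 ± 0.032 in TG and 0.408 ± 0.061 in WT (exact p = 0.7, adjusted 0.7).

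Of the meningeal binding proteins, *Igfbp2* had the largest log2 fold change of the 10 members. *Igfbp2* (ENSMUSG00000039323, chr1:72824503-72852474, plus strand) encodes a binding protein that is abundant in cerebrospinal fluid. It had 933, 978 and 784 normalized counts in TG-1 to TG-3, while WT-1 to WT-3 had 833, 710.3 and 594. TG-3 lay below WT-1, so the groups overlapped, but at each replicate number TG was above WT, by 0.16, 0.46 and 0.40 on the log2 scale. The means were 898 ± 101 in TG and 712 ± 120 in WT (SD, n = 3 each), a difference of 26.1%. The log2 fold change was 0.34 (SE 0.14, 95% interval 0.01 to 0.67), with an unadjusted p-value of 0.0446 and an adjusted p-value of 1.00 in limma. With the block the unadjusted p-value was 0.00246 and the adjusted p-value 0.491, and the exact permutation p-value was 0.2. The library numbered 3 was the lowest in each genotype, and the library numbered 1 the highest in WT.

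Leaving out each library in turn gave log2 fold changes of *Igfbp2* from 0.22 to 0.46. The unadjusted limma p-value was 0.115 without TG-1, 0.138 without TG-2, 0.0861 without WT-2 and 0.134 without WT-3. Without both libraries numbered 3 it was 0.0211, with a log2 fold change of 0.31. TG was above WT at each replicate number for 2 of the 10 members, *Igf2* and *Igfbp2*, and for 1933 genes (11.6% of those tested).

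*Igfbp6*, placed with the meningeal members from background knowledge only, did not separate the genotypes, and its profile over the libraries differed from those of *Igf2* and *Igfbp2*. *Igfbp6* (ENSMUSG00000023046, chr15:102144362-102149511, plus strand) had 1060, 935 and 1134 normalized counts in TG-1 to TG-3, while WT-1 to WT-3 had 1092, 888 and 1044. The groups overlapped throughout, and the library numbered 2 was the lowest in each genotype, where *Igf2* and *Igfbp2* had their highest TG values. The log2 fold change was 0.05 (SE 0.11, 95% interval -0.21 to 0.31), with an adjusted p-value of 1.00 in limma, and it ran from -0.04 to 0.13 when each library was left out in turn.

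**Figure D3:**
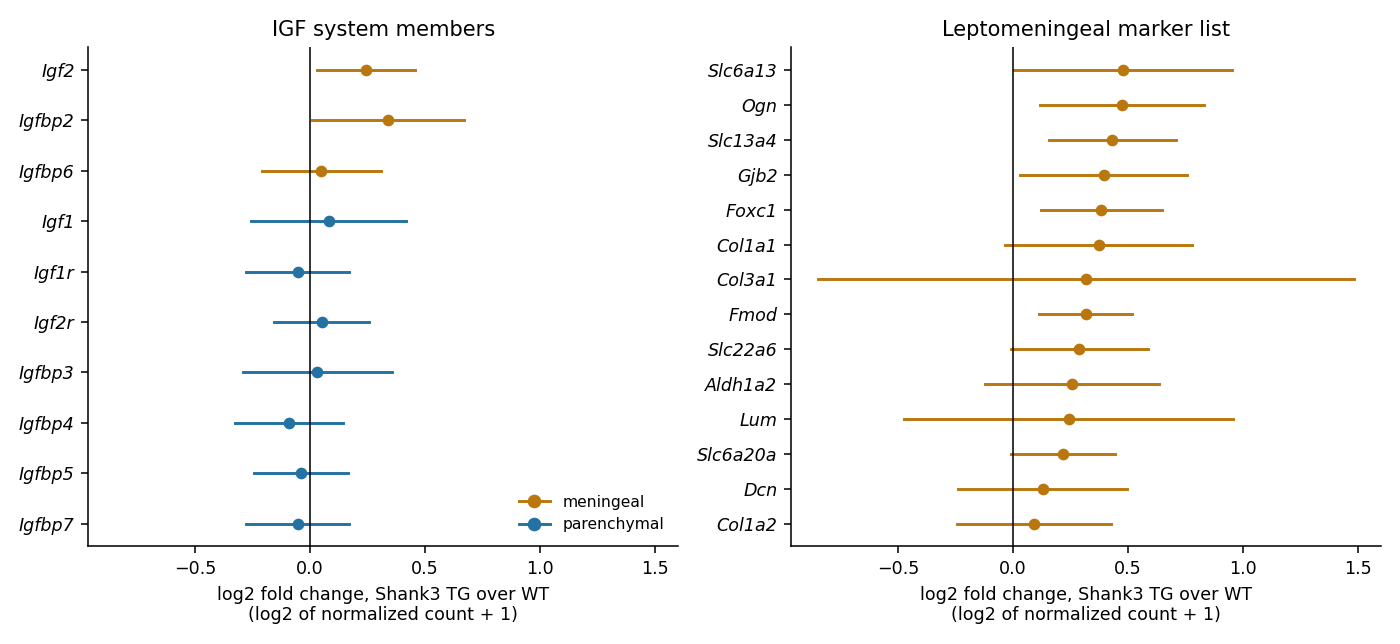
Log2 fold change of each IGF system member, TG over WT, with its 95% interval from limma. The intervals of *Igf2* (0.03 to 0.46) and *Igfbp2* (0.01 to 0.67) lie above 0 before adjustment, and those of the other 8 members include 0.

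The receptors did not separate the genotypes. *Igf1r* (ENSMUSG00000005533, chr7:67952827-68233668, plus strand) had 741, 867 and 748 normalized counts in TG-1 to TG-3, while WT-1 to WT-3 had 832, 850 and 759. The groups overlapped, and the log2 fold change was -0.05 (SE 0.10, 95% interval -0.28 to 0.17), or -0.013 to -0.126 when each library was left out in turn. *Igf2r* (ENSMUSG00000023830, chr17:12682406-12769664, minus strand), which is imprinted and overlaps an antisense transcript not analysed here, had 1281, 1209 and 1169 normalized counts in TG-1 to TG-3, while WT-1 to WT-3 had 1208, 1259 and 1070. Its groups also overlapped, with a log2 fold change of 0.05 (SE 0.09, 95% interval -0.16 to 0.26). The ratio of *Igf2r* to *Igf1r* normalized counts was 1.56 ± 0.17 in TG and 1.45 ± 0.04 in WT (SD, n = 3 each), with an exact permutation p-value of 0.4, or 0.625 after adjustment over the 5 ratios. The intervals give the differences in each receptor that these libraries are compatible with, before adjustment.

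The 4 parenchymal binding proteins had log2 fold changes between -0.09 and 0.03, and the genotypes overlapped in each. *Igfbp4* (ENSMUSG00000017493, chr11:99041244-99054392, plus strand) had 2378, 2736 and 2341 normalized counts in TG-1 to TG-3, while WT-1 to WT-3 had 2628, 2926 and 2389. TG was below WT at each replicate number, although TG-2 was above WT-1 and WT-3, and the log2 fold change was -0.09 (SE 0.10, 95% interval -0.32 to 0.14). Leaving out each library in turn gave -0.016 (without WT-2) to -0.162 (without WT-3). *Igfbp5* (ENSMUSG00000026185, chr1:72857932-72874884, minus strand) is the neighbour of *Igfbp2* on chromosome 1. It had 3954, 4118 and 4312 normalized counts in TG-1 to TG-3, while WT-1 to WT-3 had 3864, 4209 and 4694, with a log2 fold change of -0.04 (SE 0.09). Its level was highest in the library numbered 3 of each genotype, where *Igfbp2* was lowest.

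The vascular binding proteins did not separate the genotypes either. *Igfbp3* (ENSMUSG00000020427, chr11:7206086-7213923, minus strand), the main carrier of IGFs in blood, had 227, 206 and 180 normalized counts in TG-1 to TG-3. In WT-1 to WT-3 it had 223, 180 and 196, and the log2 fold change was 0.03 (SE 0.14). *Igfbp7* (ENSMUSG00000036256, chr5:77349240-77408041, minus strand) binds IGFs only weakly and is a marker of endothelium. It had 591, 595 and 537 normalized counts in TG-1 to TG-3, while WT-1 to WT-3 had 639, 605 and 547, with TG below WT at each replicate number and a log2 fold change of -0.05 (SE 0.10), or -0.0035 to -0.115 when each library was left out in turn. The adjusted p-values of the receptors and the parenchymal binding proteins were all 1.00 in limma.

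Transcripts that mark the leptomeninges also had higher values in TG, as *Igf2* and *Igfbp2* did. Of 14 leptomeningeal fibroblast markers, all tested, 14 had a log2 fold change above 0, with a median of 0.32 and a range of 0.09 to 0.48. None passed the adjusted threshold in limma, and 6 had an unadjusted p-value under 0.05, or 9 with the block, all with higher values in TG. Over all genes tested, 0.933% met the former with higher values in TG. With the block, 4.98% did so in either direction, and 389 of the 16714 genes with higher values in TG. For 6 of the 14, the TG values all exceeded the WT values, against 2.91% of all genes tested. The summed level of the 14 markers was 4713 to 5531 normalized counts in TG and 3867 to 4678 in WT, a ratio of 1.21, and none of the markers was at 0. The most abundant were *Col1a2*, a chain of type I collagen, with a log2 fold change of 0.09, and *Fmod*, which encodes the matrix protein fibromodulin, with 0.32. Without both libraries numbered 3, the median was again 0.32 and 13 of 14 were above 0.

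The member levels were also taken relative to these markers, as the log2 level of the member minus the mean log2 level of the 14 markers in the same library. On this scale *Igf2* was at 2.70, 2.76 and 2.79 in TG-1 to TG-3, and in WT-1 to WT-3 at 2.77, 2.71 and 2.99. The groups overlapped and the difference of their means, TG minus WT, was -0.07, compared with 0.24 without the markers. *Igfbp2* was at 1.61, 1.54 and 1.48 in TG and at 1.61, 1.51 and 1.42 in WT, a difference of 0.03 compared with 0.34. The marker mean itself was higher in TG by 0.31, and this scale lowers the difference of every gene by that same amount, so the smaller differences follow from the subtraction and are a description only. The difference became -0.26 for *Igfbp6* and -0.23 to -0.40 for the parenchymal members. How much of the *Igf2* and *Igfbp2* difference goes with the amount of meningeal tissue in a sample was not tested.

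*Igfbp2* followed the markers most closely of the 10 members. The root mean square difference between its centred log2 profile over the 6 libraries and the mean profile of the markers was 0.067, and only 4 of the 13455 genes whose mean reached 50 normalized counts were nearer. *Igf2* differed from the marker profile by 0.096, with 38 genes nearer. *Igfbp6* differed by 0.236, more than the median of 0.226 over all these genes, and 7454 of the genes (55.4%) were nearer. Single markers also strayed from their mean profile. *Col3a1* had 222, 192 and 124 normalized counts in TG-1 to TG-3 and 312, 127 and 67.7 in WT-1 to WT-3. The distance of each marker was not computed, so this measure cannot decide the placing of *Igfbp6*. The median and sum of the meningeal members include *Igfbp6*. This measure is a description over 6 points that share their normalization, the markers themselves are among the genes counted, and the remaining 7 members differed by 0.161 to 0.263.

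**Figure D4:**
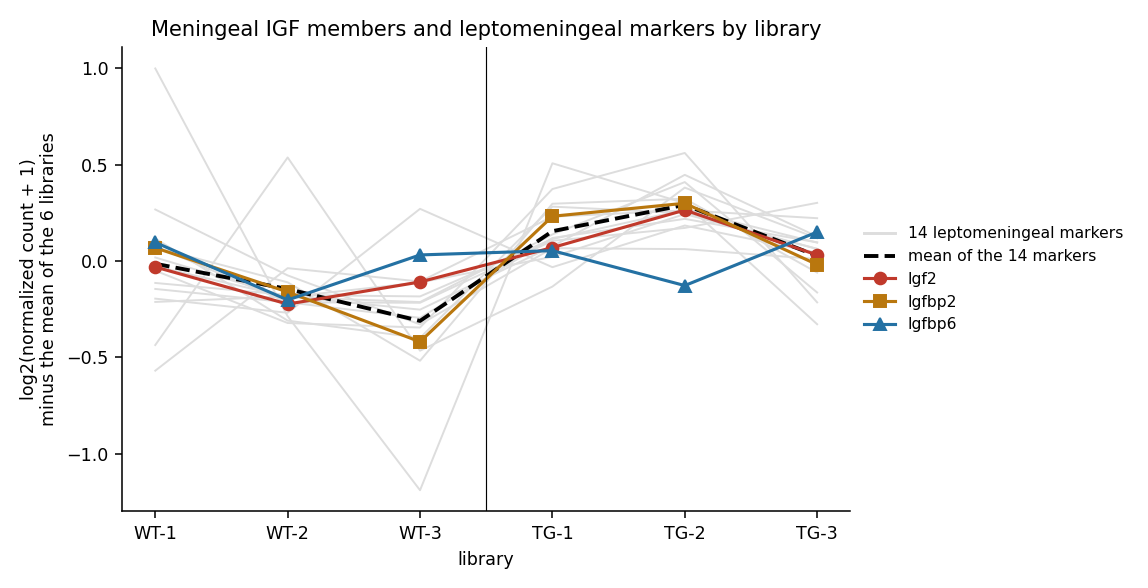
Log2 level of *Igf2*, *Igfbp2* and *Igfbp6* in each library, centred on the mean of each gene, beside the mean of the 14 leptomeningeal markers. *Igf2* and *Igfbp2* run close to the markers and *Igfbp6* does not.

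The genes with the most similar profiles were in part the same markers. For *Igf2* the nearest of 13445 genes was *Slc6a20a*, an amino acid transporter on the leptomeningeal list, with a root mean square log2 difference of 0.029, followed by *Lrrc8a*, a subunit of a volume-regulated anion channel, at 0.042 and *Mmp14*, a membrane-bound matrix metalloproteinase, at 0.050. For *Igfbp2* they were *Adgre1*, the macrophage receptor F4/80, at 0.041, *Enpep*, an aminopeptidase, at 0.042 and the leptomeningeal marker *Col1a1* at 0.056. The nearest genes to *Igfbp6* were *Mon1a*, *Lin7b* and *Fam173a* at 0.019 to 0.023, none of which is on a marker list used here. Those nearest to *Igf1* were *Scg2*, a secretory granule protein, *Sgsm1* and *Sik2* at 0.041 to 0.045.

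Other cell types were compared in the same way. Border macrophage markers, which belong to cells of the meninges and perivascular space, had log2 fold changes above 0 in 6 of 6, with a median of 0.27 and sums of 369 to 498 normalized counts in TG and 331 to 420 in WT. Choroid plexus markers, 8 of 10 tested, had a median of 0.36, with 5 above and 3 below 0 and sums of 163 to 647 in TG and 156 to 325 in WT. This median rested on single libraries and on the settings, as it was -0.05 without TG-3, 0.0019 without WT-2, 0.17 without WT-1 and 0.57 without WT-3. It was 0.19 with a pseudocount of 5, 0.21 with no filter on low values and 1.18 for genes with a mean of 50 or more. The defining marker of that tissue, *Ttr*, had 127, 22.9 and 445 normalized counts in TG-1 to TG-3, against 14.3, 12.6 and 41.7 in WT-1 to WT-3. Its highest value in each genotype was in the library numbered 3. The part of choroid plexus content in the *Igf2* and *Igfbp2* values was not tested. The median log2 fold change was 0.01 for endothelial, 0.02 for mural, -0.01 for microglial, 0.0018 for astrocyte, -0.0020 for inhibitory and 0.02 for excitatory neuron markers. Oligodendrocyte markers had a median of -0.44, and 8 of 8 were below 0. Their sums were 74936 to 97339 normalized counts in TG and 111618 to 113801 in WT. The part of oligodendrocyte content in the member values was not tested.

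**Figure D5:**
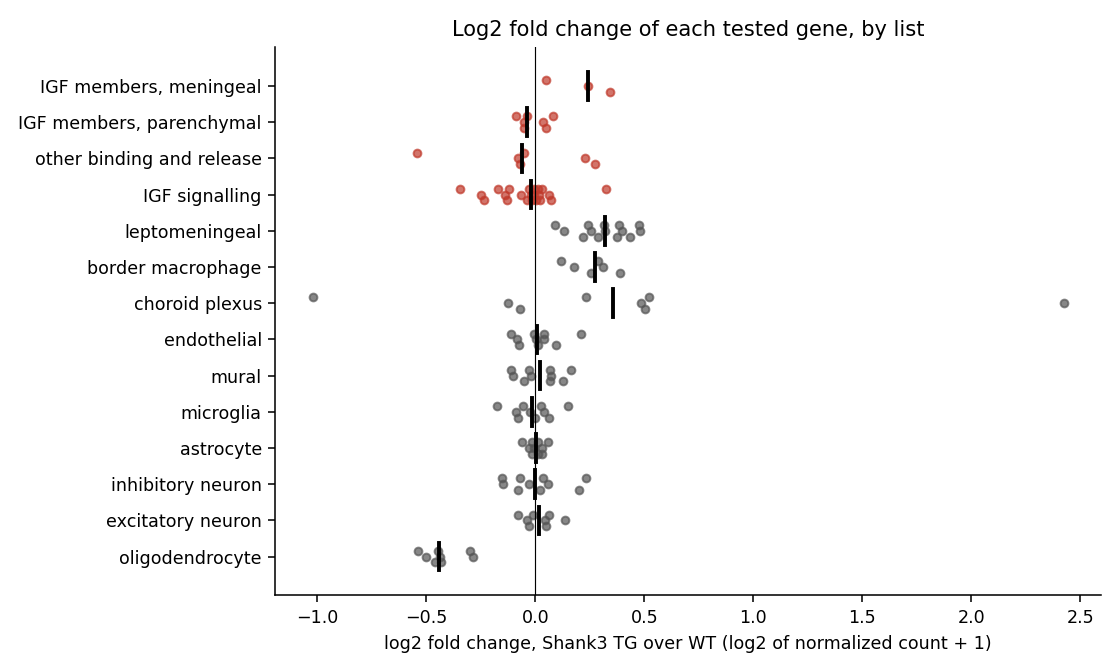
Log2 fold change of each tested gene, TG over WT, with the median of each list. Shown are the IGF system groups, the lists of other binding and release and of signalling genes, and the cell type lists. The medians are 0.24 for the meningeal members, 0.32 for the leptomeningeal markers, -0.04 for the parenchymal members and -0.44 for the oligodendrocyte markers.

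The rest of the IGF pathway showed no call. Of 33 further genes, 31 were tested, 0 passed the adjusted threshold, 11 had log2 fold changes above 0 and 20 below, with a median of -0.03. Among 6 other genes of IGF binding and release, which include proteases that cut binding proteins, the median was -0.06 and none had an unadjusted p-value under 0.05. This median changed sign with single libraries left out, to 0.017 without TG-3 and 0.022 without WT-1. *Pappa2*, a protease of IGF-binding proteins, had a log2 fold change of 0.23, with TG below WT at number 1 (-0.04) and a range of 0.074 to 0.42 when each library was left out in turn. The values of -0.54 for *Pappa* and 0.28 for *Igfbpl1* rest on means of less than 10 normalized counts, and both changed sign when single libraries were left out. Among the 22 signalling genes downstream of the receptors the median was -0.02, with 8 above and 14 below 0.

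*Grb10*, the imprinted adaptor that binds the insulin and IGF1 receptors and inhibits their signalling, was the 1 signalling gene with an unadjusted p-value under 0.05 with genotype alone in limma. With the block, *Grb14* passed as well, which made 2 of the 22 genes. Over all genes tested 2.01% passed with genotype alone and 4.98% with the block, so these counts are close to the background for a list of this size. *Grb10* had 1489, 1413 and 1346 normalized counts in TG-1 to TG-3, while WT-1 to WT-3 had 1014, 1148 and 1244. The lowest TG library exceeded the highest WT library, as for 2.91% of all genes tested. The log2 fold change was 0.32 (SE 0.10, 95% interval 0.10 to 0.55), with an unadjusted p-value of 0.0105 and an adjusted p-value of 1.00 in limma, 0.579 with the block and 0.0948 with the empirical null. The related adaptor *Grb14* had 421, 429 and 627 normalized counts in TG-1 to TG-3, while WT-1 to WT-3 had 434, 535 and 997. TG was below WT at each replicate number, but the groups overlapped, and the library numbered 3 was the highest in each genotype. Its log2 fold change was -0.34, with an SE of 0.30 and an unadjusted limma p-value of 0.288 with genotype alone, and an SE of 0.12, an unadjusted p-value of 0.0171 and an adjusted p-value of 0.851 with the block. It ran from -0.59 to 0.0053 when each library was left out in turn, and was -0.18 without both libraries numbered 3.

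The adaptor *Shc1*, which links receptors to the Ras pathway, had 238, 371 and 494 normalized counts in TG-1 to TG-3, while WT-1 to WT-3 had 471, 412 and 377. TG was below WT at numbers 1 and 2 and above it at number 3. *Shc1* had a log2 fold change of -0.25 (SE 0.25), with an unadjusted limma p-value of 0.343, and it ran from -0.49 to 0.03 when each library was left out in turn. Without both libraries numbered 3 it was -0.57, with an unadjusted limma p-value of 0.0235.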

How the data were processed

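RNA was sequenced from 6 libraries with a stranded mRNA kit. According to the submitters' processing notes, the authors used Salmon 0.9.1, R 3.6.0 and DESeq2 1.19.11 on GRCm38. The deposited values are a signal, read counts normalized by the authors, for 18254 genes. They are not whole reads: of the values under 20, 23.5% to 41.1% per library lay within 0.05 of a multiple of 1 step, so reads were not recovered and depth is known only as normalized sums. The annotation release of the authors is not given in the sources used here. Names and coordinates came from GENCODE M21, which held 18215 of the gene identifiers.

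Genes with a mean of at least 5 were tested on log2(value + 1) with limma 3.58.1 in R 4.3.3, with a mean-variance trend and genotype as the only term. A log2 fold change on this scale understates the change of low genes. Tests were 2-sided, with Benjamini-Hochberg adjustment over all 16714 genes and a threshold of 0.05. The p-values measure the spread between pools. TG and WT libraries with the same number deviated together (Pearson's r 0.30, 0.33 and 0.62 across genes). Between numbers 1 and 2 r was 0.27 and 0.23, hardly lower, and between number 3 and the others -0.39 to -0.44. The pairing seen was thus chiefly that of the libraries numbered 3. A fit with the number as a block is given where it changed a call. The code was tested on simulated data. Alternatives were 2 other pseudocounts, other filters, 2 other normalizations, a robust fit, an empirical null, the block and leaving out libraries.

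The members, lists and tests were chosen with earlier results of these data known. Genes named were the 10 members, *Shank3*, in each pathway list the 3 with the largest absolute log2 fold change, in cell type lists the most abundant, and the 3 genes nearest in profile to 4 members. *Camk2a* belongs to the excitatory neuron list. *Ttr* was named as the defining choroid plexus marker. The scale relative to leptomeningeal markers was added after the values were seen.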

Additional observations from a re-analysis of the deposited data

How the results depend on the processing

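No member of the IGF system passed the adjusted threshold under any of the 16 alternatives, and the lowest adjusted p-value of a member was 0.257, with the empirical null. Over the whole table, the number of genes called was 0 with genotype alone. It was 1 with upper quartile rescaling, the robust fit, the replicate block or without both libraries numbered 3, 26 with the empirical null, and 0 to 1 when each library was left out in turn. *Shank3* passed the threshold with upper quartile rescaling (log2 fold change 1.189, adjusted p = 0.0453 in limma), the robust fit (1.18, 0.0307), the empirical null (1.18, 4.46e-06), the replicate block (1.18, 0.000437) and without both libraries numbered 3 (1.14, 0.00804). Leaving out each library in turn gave 1.09 to 1.24 for *Shank3*, and it passed without WT-3 (adjusted p = 0.0481). The block changed no other call.

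*Igf2* and *Igfbp2* had positive log2 fold changes under every alternative. Some values near 0 changed sign when libraries were left out in turn, while *Igf1r*, *Igfbp4* and *Igfbp7* stayed negative. *Igf1* ran from -0.038 (without TG-2) to 0.178, *Igf2r* from -0.017 (without WT-3) to 0.0998, *Igfbp3* from -0.047 (without TG-1, and negative also without WT-2) to 0.122, *Igfbp5* from -0.108 to 0.033 (without WT-3) and *Igfbp6* from -0.038 (without WT-2, and negative also without TG-3) to 0.127. *Igfbp5* was at 0.000853 without both libraries numbered 3. The cause was not tested. With 3 pools of each genotype and no read counts, counting error could not be separated from the spread between pools.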

Other observations

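*Igf2bp2*, which encodes a protein that binds *Igf2* and other messenger RNAs, divided the libraries by replicate number and not by genotype. It had 29.4, 39.5 and 452 normalized counts in TG-1 to TG-3, and 35.7, 28.8 and 459 in WT-1 to WT-3. The mean of the libraries numbered 3 was 13.7 times that of the other 4, and 14 of 13455 genes whose mean reached 50 normalized counts had a ratio at least as high. Its log2 fold change between the genotypes was 0.05 (SE 1.28). *Igf2bp3* of the same family had 66.0 to 85.6 normalized counts in all 6 libraries, and *Igf2bp1* 4.83 to 16.8. The libraries numbered 3 did not stand apart in *Igf2* or *Igfbp6*, and held the lowest *Igfbp2* and the highest *Igfbp5* of each genotype. They also held the lowest *Igf1*, *Igf2r*, *Igfbp4* and *Igfbp7* of each genotype, in some cases by small margins. What else the libraries numbered 3 share was not tested.

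*Th*, the gene of tyrosine hydroxylase close to *Igf2* on chromosome 7, was the 1 of 4 listed neighbours present in the deposited table. *Ins2*, *H19* and *Igf2os* were absent from it. *Th* had 38.1, 170.0 and 47.2 normalized counts in TG-1 to TG-3, and 43.4, 51.5 and 64.9 in WT-1 to WT-3. TG-2, the library with the highest *Igf2*, also had the highest *Th*, but TG-1, with the next highest *Igf2*, had the lowest. *Th* thus stood out in TG-2 only, and a link between these genes was not tested.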
